A study of Mus musculus with 8 samples.

Results

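V(D)J recombination builds the antigen receptor genes of lymphocytes, and 10 genes that encode its recombinase and the end-joining factors that seal the cut ends were followed here in maps of 5-hydroxymethylcytosine (5-hmC), an oxidized form of methylated cytosine produced by TET enzymes. They were taken by name from the GENCODE M21 annotation of GRCm38 and are 10 of the 21755 protein-coding genes on chromosomes 1 to 19 and X. In this set 3 genes are lymphoid-specific (*Rag1*, *Rag2* and *Dntt*) and 7 are ubiquitous (*Xrcc4*, *Xrcc5*, *Xrcc6*, *Prkdc*, *Lig4*, *Dclre1c* and *Nhej1*). Pro-B cells (B220+CD43+IgM-) were sorted from the bone marrow of C57BL/6 mice aged 4 to 6 weeks, and DNA fragments pulled down with an antibody against 5-hmC were sequenced (hMeDIP-seq). The wild-type group held 2 libraries, from littermates that carry 1 functional allele (*Hdac7*+/-), and the HDAC7-deficient group held 2 libraries from *Hdac7* fl/- mice, whose floxed allele is deleted by a Cre expressed from the *Cd79a* (mb-1) locus in the B lineage. Mice of both groups thus carry a null *Hdac7* allele. The files give the start and end of each peak, called in each library on its own, with no height or read count. The depth of a library is therefore unknown, and no interval for counting error can be given.

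The lists held between 1305200 and 1414862 peaks, which covered between 8.72% and 10.4% of chromosomes 1 to 19 and X. HDAC7-deficient replicate 2 stood apart from the other 3 libraries on some chromosomes. Its peaks covered 11.8% of chromosome 15 and 11.9% of each of chromosomes 16 and 19, against 8.96% to 10.7% in the others, and 11% of chromosome X, against 4.01% to 6.39%. It also had 20 peaks on chromosome Y, against 585 to 868. *Xrcc6*, *Prkdc* and *Dntt* lie on chromosomes 15, 16 and 19. Peaks of DNA cannot test the identity of the sorted cells by markers, and they cannot show whether *Hdac7* was deleted. A different share of cells with 5-hmC and a different amount per cell cannot be told apart in such lists.

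RAG1 and RAG2 form the recombinase that cuts DNA at the recombination signals beside V, D and J segments, and its genes are active in lymphoid precursors. Terminal deoxynucleotidyl transferase, the product of *Dntt*, adds nucleotides without a template at the junctions. The other members act in non-homologous end joining, the repair pathway that all cells use for double-strand breaks. *Xrcc6* and *Xrcc5* encode the Ku70 and Ku80 subunits of the end-binding Ku dimer, *Prkdc* the catalytic subunit of DNA-PK, *Dclre1c* the nuclease Artemis that opens hairpin ends, and *Xrcc4*, *Lig4* and *Nhej1* the ligation factors XRCC4, DNA ligase IV and XLF. 5-hmC arises mostly at CpG dinucleotides and is often found in the bodies and enhancers of active genes.

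The stretches that lay under a peak in all 4 libraries are the most repeatable signal at these genes, so a few of them are given first, chosen by the number of bases that all 4 lists shared and kept clear of untranslated regions. Each is the forward strand of GRCm38, 5′ to 3′, with every CpG in capitals. In the *Rag1*-*Rag2* locus, one stretch lay in the single coding exon of *Rag1* at chr2:101643967-101644130, one 2932 bp upstream of the 5′ end of *Rag2* at chr2:101621661-101621911, and one in an intron of *Traf6*, the gene next to *Rag1*, at chr2:101696350-101696552. Both stretches beside or inside a *Rag* gene held 5 CpGs, and the *Traf6* stretch held 1.
Rag1 coding exon: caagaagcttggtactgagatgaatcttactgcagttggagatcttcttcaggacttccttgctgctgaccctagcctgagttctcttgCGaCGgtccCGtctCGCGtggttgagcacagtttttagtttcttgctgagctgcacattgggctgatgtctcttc
upstream of Rag2: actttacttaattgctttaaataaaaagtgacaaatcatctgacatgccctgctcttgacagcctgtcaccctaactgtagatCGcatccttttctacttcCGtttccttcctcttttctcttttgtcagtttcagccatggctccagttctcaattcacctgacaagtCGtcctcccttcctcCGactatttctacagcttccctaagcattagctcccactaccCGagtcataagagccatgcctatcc
Traf6 intron: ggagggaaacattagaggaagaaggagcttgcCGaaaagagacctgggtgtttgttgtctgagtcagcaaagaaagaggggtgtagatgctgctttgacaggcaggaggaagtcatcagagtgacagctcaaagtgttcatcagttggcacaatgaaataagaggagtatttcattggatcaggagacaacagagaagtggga

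At *Dntt* both stretches lay in an intron, 22101 and 21362 bp downstream of the 5′ end, at chr19:41051280-41051473 and chr19:41050555-41050720.
Dntt intron, first: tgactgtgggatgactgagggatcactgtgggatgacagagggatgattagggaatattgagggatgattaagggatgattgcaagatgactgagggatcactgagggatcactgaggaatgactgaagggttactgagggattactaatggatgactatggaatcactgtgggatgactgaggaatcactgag
Dntt intron, second: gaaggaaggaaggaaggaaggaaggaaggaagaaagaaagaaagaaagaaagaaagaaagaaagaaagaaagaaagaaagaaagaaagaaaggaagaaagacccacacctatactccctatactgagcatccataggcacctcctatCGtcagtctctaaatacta

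The *Dntt* stretches held 0 and 1 CpG and are repetitive over much of their length. In the first, 74.3% of bases equaled the base 11 positions further on, and in the second 69.8% equaled the base 4 positions on. The corresponding best match at any distance up to 12 positions was between 31.6% and 35.0% in the 3 stretches of the *Rag1*-*Rag2* locus. The longest stretches that all libraries shared at *Dntt* thus held almost no CpG, whereas that in the *Rag1* exon held 30.5 CpGs per kb.

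With 5 kb on each side, *Rag1* and *Rag2* had the highest 5-hmC peak coverage of the 10 genes in each of the 4 libraries. Coverage is the percent of bases under a peak in the gene with 5 kb on each side, and values are given in the order wild-type 1 and 2, HDAC7-deficient 1 and 2. For *Rag1* (chr2:101638282-101649501, minus strand) it was 18.4%, 16.6%, 18.3% and 23.2%, with 17, 23, 19 and 24 peaks. For *Rag2* (chr2:101624718-101632529, plus strand) it was 15.3%, 16.0%, 17.3% and 19%, with 14, 15, 18 and 15 peaks. The windows of these adjacent genes share 4248 bp, so the values are not independent. *Dntt* (chr19:41029275-41059525, plus strand) was covered over 12.9%, 15.3%, 12.7% and 12.5%, with 32, 36, 35 and 30 peaks. It had rank 3 of the 10 genes in 3 libraries and rank 7 in HDAC7-deficient replicate 2. The median over all 21755 genes was 9.27%, 10.7%, 9.14% and 10.3%, below each of the 3 lymphoid-specific genes in every library.

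**Figure D1:**
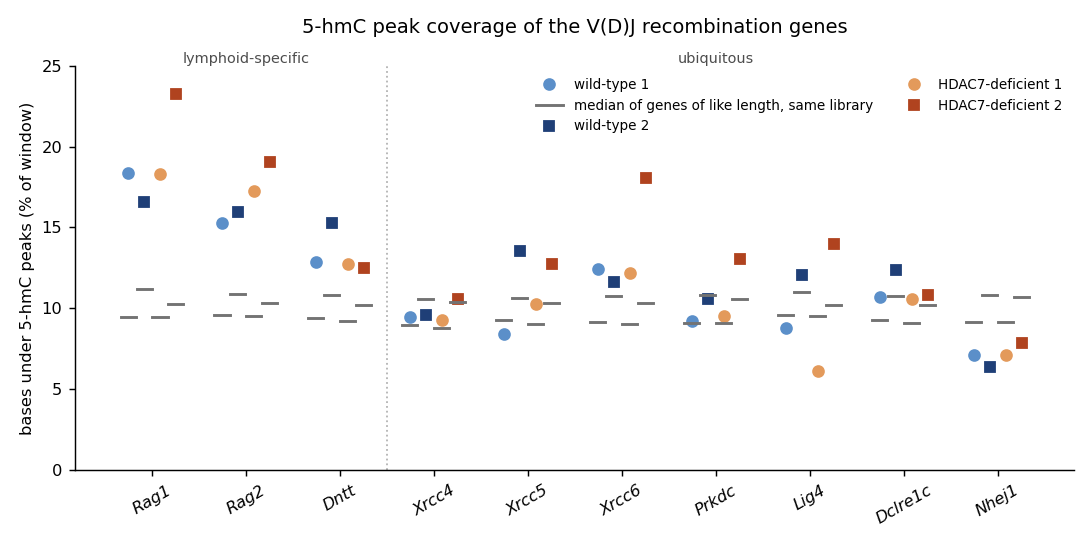
Percent of bases under 5-hmC peaks (y axis) in each gene with 5 kb on each side, with 1 point per library and grey lines at the median of genes of like length in the same library. The points of *Rag1* and *Rag2* lie between 15.3% and 23.2%, all above their grey lines, while those of *Nhej1* lie below theirs.

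Among the ubiquitous genes, coverage spread around the level of other genes. *Xrcc6* (chr15:81987835-82040085) had 12.4%, 11.6%, 12.2% and 18%, the highest of the class on average, and *Desi1*, on the other strand, overlaps 41340 bp of its window. *Xrcc5* (chr1:72307421-72394952) ranged from 8.41% in wild-type replicate 1 to 13.5% in wild-type replicate 2, so the replicates of 1 genotype spanned more than the genotypes differed. *Dclre1c* (chr2:3424131-3464130) had 10.7%, 12.4%, 10.6% and 10.8%. The long genes *Prkdc* (chr16:15637866-15842235) and *Xrcc4* (chr13:89774027-90089608) had 9.2% to 13.1% and 9.26% to 10.6%. *Lig4* (chr8:9969049-9977686), which has a single coding exon as *Rag1* and *Rag2* do, varied most, with 8.82%, 12.1%, 6.11% and 14.0%.

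*Nhej1* (chr1:74967139-75125200) was lowest on average, with 7.12%, 6.38%, 7.13% and 7.88%, although *Lig4* was lower in HDAC7-deficient replicate 1 (6.11%). The *Nhej1* window holds 66000 unknown bases, 39.3% of its length, on which no read can be placed. Over the known bases alone its coverage was 11.7%, 10.5%, 11.7% and 13%, above *Xrcc4* in all 4 libraries. No other member's window held an unknown base. Peaks carry no strand, so those in sequence that a member shares with a neighbor belong to either gene. Such neighbors reached into the windows of all 10 genes. They included *Opalin* beside *Dntt* (2816 bp), *Mcm4* beside *Prkdc* (4535 bp), *Abhd13* beside *Lig4* (4980 bp) and *Suv39h2* beside *Dclre1c* (13316 bp).

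In the order of mean coverage, *Rag1* exceeded *Rag2* in 4 of 4 libraries by 2.24 ± 1.70 percentage points (mean ± SD over the 4 libraries), and *Rag2* exceeded *Xrcc6* in 4 of 4 by 3.32 ± 1.79. From there down to *Xrcc4*, no gene exceeded the next in all 4 libraries, and *Xrcc6* and *Dntt* differed by 0.228 ± 3.83 points. The mean over the 3 lymphoid-specific genes was 15.5%, 15.9%, 16.1% and 18.3%, against 9.45%, 10.9%, 9.29% and 12.4% over the 7 ubiquitous ones. The class difference was 6.05, 5.05, 6.81 and 5.82 points, a mean of 5.93 ± 0.728, and had the same sign in every library. With known bases alone it was 5.27 ± 0.705, and with *Rag1* and *Rag2* taken as 1 locus 5.20 ± 0.436. These are 3 and 7 genes at 9 loci, so the difference is a description of these genes and was not tested.

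Set against genes of like length, the *Rag* genes stood near the upper end. Of the 2825 genes whose length is within 25% of that of *Rag1*, between 85.8% and 99.0% had lower coverage, depending on the library. For *Rag2* the share was 83.2% to 94.3% of 2707 genes and for *Dntt* 73.8% to 88.8% of 2939 genes. The ubiquitous genes were more scattered, with 62.0% to 98.8% for *Xrcc6*, 58.0% to 70.6% for *Dclre1c*, 45.3% to 85.3% for *Prkdc*, 36.1% to 87.4% for *Xrcc5*, 26.4% to 64.2% for *Xrcc4* and 19.9% to 77.5% for *Lig4*. *Nhej1* was at 3.19% to 15.1% of 971 genes over the whole window, and at 43.4% to 87.2% over known bases. In all, 5 of the 10 genes lay above the median of their length class in all 4 libraries, the 3 lymphoid-specific ones with *Xrcc6* and *Dclre1c*. The share of all genes that do so in all 4 libraries was not counted, so this number cannot be called high or low.

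**Figure D2:**
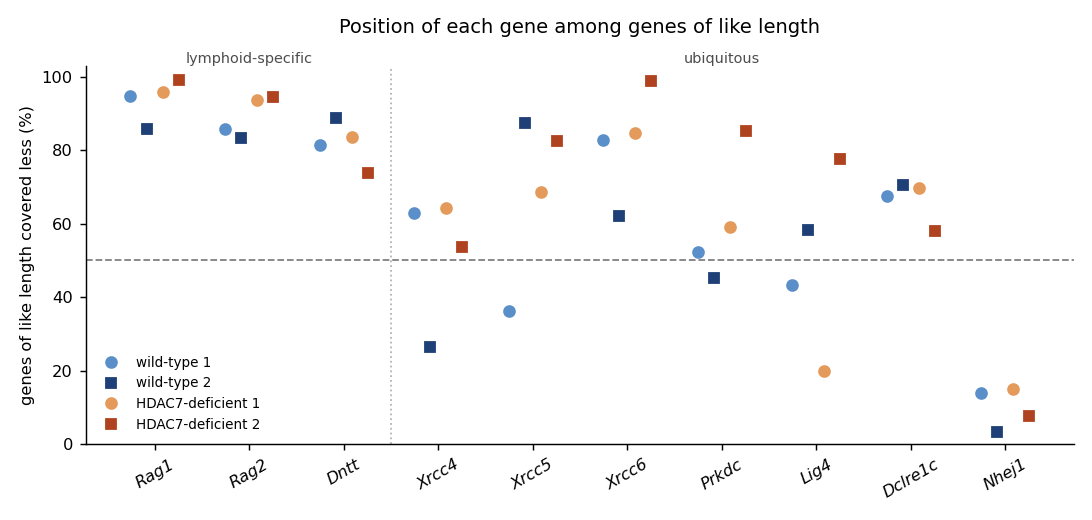
Percent of genes of like length with lower 5-hmC peak coverage (y axis, 50% marked by the dashed line) for each gene and library. *Rag1*, *Rag2* and *Dntt* lie between 73.8% and 99.0% in all 4 libraries, and the points of *Lig4*, *Xrcc5* and *Xrcc4* fall on both sides of the line.

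The windows of the *Rag* genes are not rich in CpGs. *Rag1* and *Rag2* have 10.7 and 8.59 CpGs per kb of window, where genes of like length have a median of 13.4 and 12.8. Counting CpGs in place of bases, 29.8%, 23.2%, 25% and 37.7% of the 228 CpGs in the *Rag1* window lay under a peak. These values exceeded those of 95.0% to 100% of the genes of like length. For *Rag2*, 19.6%, 17.0%, 24.8% and 28.8% of 153 CpGs did, higher than in 79.2% to 98.9% of such genes, and the 2 HDAC7-deficient values were above both wild-type values. The same held for *Xrcc5* (8.86% and 12.3% against 12.9% and 13.9%) and *Nhej1* (10% and 10.3% against 11.3% and 15.2%). Thus 3 of 10 genes were higher by this measure, against 9.46% of all genes, and 0 were lower, against 17.1%. These counts were not tested. *Dntt* had 13.2%, 16.4%, 15.3% and 11.8% of 432 CpGs under peaks. The class difference in this measure was 10, 7.56, 11.8 and 13.3 points, wider than by bases in every library.

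Coverage was also counted over the coding sequence alone. The coding sequence of *Rag1* and that of *Rag2* each lie in 1 exon. Over the 3120 coding bases of *Rag1* (chr2:101641676-101644795), peaks covered 35.8%, 21%, 26.2% and 43.3%, with 3, 5, 3 and 4 peaks, the widest of 544, 291, 434 and 981 bp. All 4 libraries had peaks in a 1287-bp region of the exon, in which they covered 1116, 435, 818 and 1145 bases. Over the 1581 coding bases of *Rag2* (chr2:101629347-101630927) coverage was 11.1%, 26.2%, 28.9% and 16.8%. The spread between replicates was wide in both genotypes, and neither gene separated them. Genes with coding sequence of like length had a median of 5.33% to 7.75% for *Rag1* and 4.21% to 6.57% for *Rag2*.

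Among those genes, between 91.1% and 99.7% had less of their coding sequence under peaks than *Rag1*, and between 74.8% and 96.8% less than *Rag2*. Genes with a long coding exon were also compared among themselves. Restricted to the 159 genes of like coding length with at least 90% of it in 1 block, *Rag1* exceeded 85.5% to 98.1%, and *Rag2* exceeded 77.8% to 93.9% of 477 such genes. *Lig4*, the ligase gene with 1 coding exon, had 10.8%, 8.45%, 5.38% and 22.9% and exceeded 55.4% to 89.7% of 224. *Dntt*, with 12 coding blocks, had 5.66%, 8.11%, 10% and 8.11%. Of the ubiquitous genes *Xrcc6* was the most evenly covered, with 20.1%, 19.8%, 19.1% and 17.8% of its coding bases under peaks, more than in 85.8% to 91.0% of genes of like coding length. *Xrcc4*, *Xrcc5*, *Dclre1c* and *Nhej1* each had coding sequence with no covered base in at least 1 library.

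**Figure D3:**
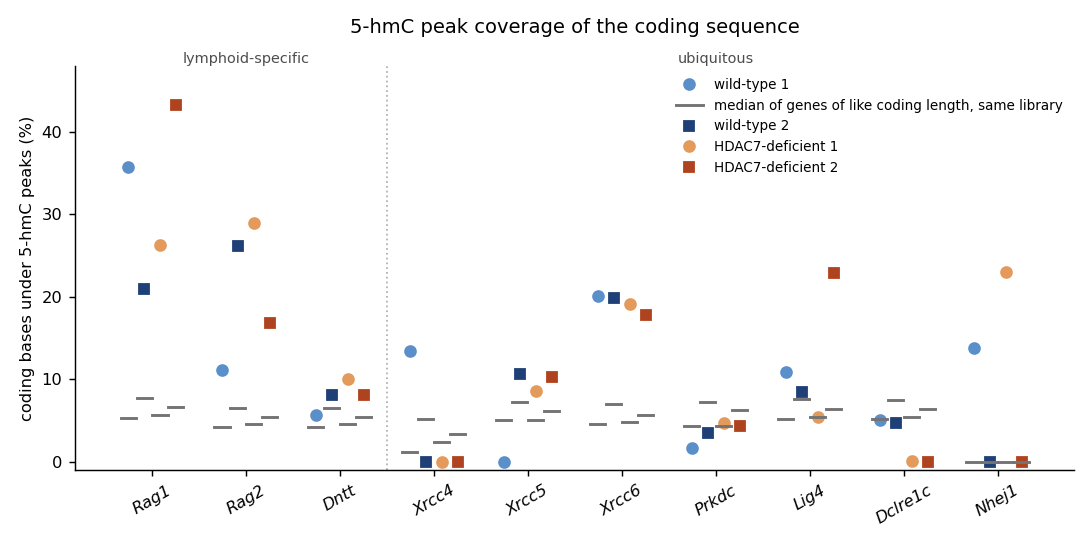
Percent of coding bases under 5-hmC peaks (y axis) for each gene, with 1 point per library and grey lines at the median of genes of like coding length. The 4 points of *Rag1* lie between 21% and 43.3% and those of *Xrcc6* between 17.8% and 20.1%, above all of their grey lines.

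In CpGs, 36, 22, 20 and 44 of the 87 in the *Rag1* coding sequence lay under a peak, and 4, 9, 10 and 6 of the 21 in that of *Rag2*. Pooled over each class, coding coverage was 22.0%, 19%, 22.8% and 27.7% in the lymphoid-specific genes and 5.24%, 5.92%, 6.01% and 7.40% in the ubiquitous ones. Without *Rag1* the pooled difference fell from 16.7 ± 2.95 to 8.20 ± 4.88 points, and remained positive in all 4 libraries. In promoters, taken as 1000 bp before and 100 bp after annotated starts, the classes overlapped. Promoters were covered over 13.4% ± 7.93 in the lymphoid-specific and 13.3% ± 2.14 in the ubiquitous genes. The flanks outside promoters were covered over 19% ± 0.976 and 12.2% ± 2.27, and introns over 13.4% ± 2.56 and 9.92% ± 1.02 (all mean ± SD over the 4 libraries).

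The *Rag* genes lie tail to tail, 5752 bp apart, in a neighborhood that was described with 50 kb on each side (chr2:101574718-101699501). The gene B230118H07Rik spans both on the minus strand, so that a peak in either *Rag* gene also lies in it, and *Traf6*, which encodes a signaling ubiquitin ligase, lies beyond *Rag1*. Peaks covered 13.8%, 12%, 15.9% and 15.3% of *Rag2*, 13.7%, 18.6%, 15.2% and 27.0% of *Rag1*, and 20.6%, 8.68%, 18.3% and 13.4% of the interval between them. The 50 kb beyond *Rag2* had 10.2%, 11.2%, 10.2% and 13%, and the 50 kb beyond *Rag1* 11.4%, 13.4%, 13.1% and 17.0%. In each library the span from *Rag2* to *Rag1*, at 15.3%, 14.2%, 16.1% and 20.2%, was thus more densely covered than either 50-kb side taken whole. Over the whole locus, coverage was 16.5% ± 2.60 without flank and 18.1% ± 2.72 with 5 kb, higher with 5 kb in each library. It then fell to 15.6% ± 2.5 with 20 kb, 13.2% ± 1.89 with 50 kb and 12.4% ± 0.821 with 100 kb (mean ± SD, 4 libraries).

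Of 158 regions in the locus, made by merging peaks that share at least 1 bp, 25 had a peak in all 4 libraries, or 15.8%. The share was 12.5% of the 2585751 regions of chromosomes 1 to 19 and X, and 12% (127 of 1054) in the 10 gene windows. Merging links peaks in chains, so a region with a peak in all 4 libraries need not hold a base under all 4 peaks. The 913-bp region from chr2:101617596 and some others of the 25 held no such base. In the locus 5 regions had a peak in both HDAC7-deficient libraries and in neither wild-type library, and 1 the reverse. Replicates of the same number in opposite genotypes shared regions found in no other library at least as often, 8 times for replicates 1 and 5 times for replicates 2. Over the 10 windows, 39 of 1054 regions were found in both HDAC7-deficient libraries alone and 23 in both wild-type libraries alone. Over all regions of chromosomes 1 to 19 and X these shares were 2.92% and 2.40%. Replicates of equal number and opposite genotype alone shared 41 and 37 regions of the windows, and replicates of unequal number 21 and 21. Over all regions the shares were 4.43% and 3.43% for equal numbers and 2.59% and 2.73% for unequal ones, so libraries of equal number shared more regions than those of unequal number.

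**Figure D4:**
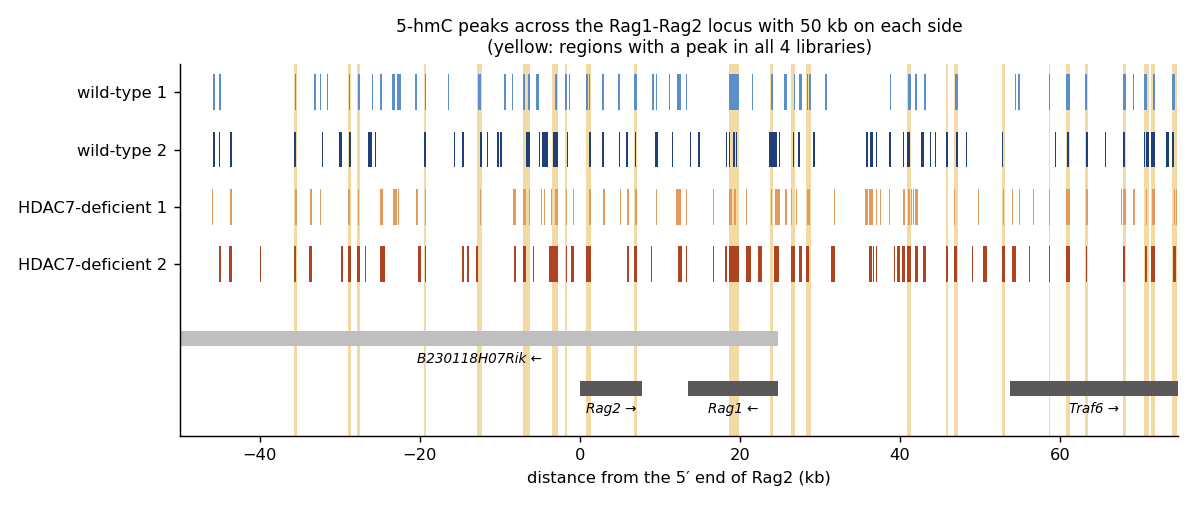
Positions of 5-hmC peaks in each library (rows of bars) across the *Rag1*-*Rag2* locus, by distance from the 5′ end of *Rag2* in kb, with genes drawn below. The 25 yellow bands are regions with a peak in all 4 libraries, and the widest of them, 1287 bp, lies in *Rag1*. Some bands hold no base that lies under all 4 peaks.

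Not all peaks held a CpG. In the *Rag1* window, 10.5% to 21.7% of peaks held none, depending on the library, against 40.1% to 43.7% of the peaks on chromosomes 1 to 19 and X. The share was 26.7% to 53.3% for *Rag2*, 31.2% to 38.9% for *Dntt* and 42.8% to 54.4% for *Xrcc4*. Of 99 stretches of at least 50 bp under all 4 peaks in the 10 windows, 44 held no CpG, or 44.4%, against 47.9% of 225637 such stretches in the genome. Both stretches at *Rag1*, 2 of 3 at *Rag2* and 2 of 4 at *Dntt* held at least 1, and *Lig4* had no such stretch. A match of at least 70% to the base at a fixed distance of up to 12 positions, the mark of a short tandem repeat, was found in 4 of the 99, or 4.04%, and in 2.61% of those of the genome.

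The question that the design puts to these genes is whether loss of HDAC7, a class IIa histone deacetylase, changed their 5-hmC. Peak bases were compared between genotypes gene by gene, and a gene was counted where both HDAC7-deficient libraries lay on the same side of both wild-type libraries. *Rag2* and *Nhej1* were higher in both HDAC7-deficient libraries, 2 of 10 genes, where 2184 of all 21755 genes, or 10%, were. *Dntt* was lower, 1 of 10, where 17.1% of all genes were. Set against these shares, 2 and 1 of 10 genes are no result about the members.

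*Rag2* had 2717 and 2845 peak bases in wild-type against 3076 and 3393 in HDAC7-deficient cells, a ratio of 1.16 ± 0.0890 (SD propagated from n = 2 and 2). The groups did not overlap, and *Rag2* stayed higher under all 6 alternatives tried. These alternatives reuse the same peaks and are not independent, and the share of all genes higher under all 6 was not counted. *Nhej1* had 11964 and 10715 against 11986 and 13249, a ratio of 1.11 ± 0.117. Its nearest values, 11964 and 11986, were almost equal, and the groups overlapped once each library was divided by its own coverage of the chromosome. *Dntt* had 5174 and 6148 against 5122 and 5034, a ratio of 0.897 ± 0.110, and it too overlapped after that division. With 2 libraries per genotype, the two-sided exact permutation test cannot give a p below 0.333, which is the value for each of these 3 genes.

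*Rag1* had 3901 and 3515 peak bases in wild-type against 3889 and 4932 in HDAC7-deficient cells, a ratio of 1.19 ± 0.217. Its groups overlapped, since HDAC7-deficient replicate 1 lay below wild-type replicate 1. The remaining 6 genes overlapped as well, with ratios from 0.926 ± 0.0972 (*Dclre1c*) to 1.26 ± 0.348 (*Xrcc6*). For *Xrcc6* the bases were 7727 and 7239 against 7596 and 11224, and for *Prkdc* 19732 and 22710 against 20451 and 28037, so that in both the high value was that of HDAC7-deficient replicate 2. This library had the most peak bases in 7 of the 10 genes, and also the most over the whole list, 273728392. The share of all genes in which this library was highest was not counted. Its peaks also covered the most of chromosomes 15 and 16, which carry *Xrcc6* and *Prkdc*. On chromosome 2, which carries the *Rag* genes, they covered 9.87%, against 8.93% to 10.4% in the others. The part of this in the ratios was not tested beyond the division by chromosome. After that division *Rag1*, *Rag2*, *Xrcc6* and *Prkdc* were higher in both HDAC7-deficient libraries, 4 of 10 genes against 13.2% of all genes. By the same measure 0 were lower, against 17%. The windows of *Rag1* and *Rag2* share 4248 bp, so these genes are not independent, and the count was not tested. For *Prkdc* the nearest values were 1.03 in wild-type and 1.06 in HDAC7-deficient cells, relative to the chromosome.

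By number of peaks, *Dclre1c* (27 and 28 against 29 and 32) and *Nhej1* (62 and 57 against 71 and 75) were higher in both HDAC7-deficient libraries, 2 of 10 genes against 12% of all genes, and 0 of 10 were lower, against 10.8%. The peak bases of *Dclre1c* were lower on average, with 5356 and 6200 against 5282 and 5421, but overlapped between genotypes. For *Lig4*, 6 and 13 wild-type peaks against 10 and 10 gave a ratio of 1.05 ± 0.548. The numbers for *Rag1* and *Rag2*, given above, overlapped between genotypes.

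**Figure D5:**
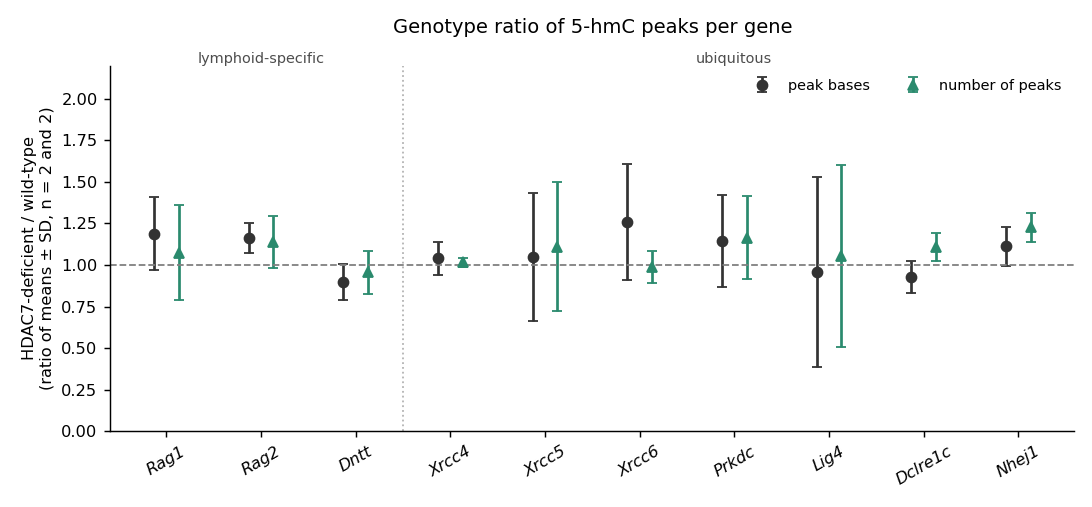
Ratio of the HDAC7-deficient to the wild-type mean (y axis) of peak bases and of the number of peaks per gene, with error bars of 1 SD propagated from 2 and 2 libraries and a dashed line at 1. Most bars cross the line. *Rag2* has a peak base ratio of 1.16 ± 0.0890 and *Nhej1* a peak number ratio of 1.23 ± 0.0870, and the widest bars belong to *Lig4*.

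Summed over the 10 genes, peak bases were 97214 and 106128 in wild-type against 98682 and 120821 in HDAC7-deficient cells, a ratio of 1.08 ± 0.168 (two-sided exact permutation test, p = 0.667). Without HDAC7-deficient replicate 2 the ratio was 0.971. Long genes weigh most in this sum. Over the 4 libraries *Xrcc4* averaged 31680 and *Prkdc* 22732.5 of a mean of 105711 bases, against 4059 for *Rag1*. The number of peaks was 519 and 577 against 577 and 611, a ratio of 1.08 ± 0.0922 (exact permutation test, p = 0.667). Neither difference exceeded the spread between replicates. Over the *Rag1*-*Rag2* locus with 50 kb, peak bases were 14614 and 15818 against 15656 and 19970, a ratio of 1.17 ± 0.211 (exact permutation test, p = 0.667), and 1.03 without HDAC7-deficient replicate 2. With 5 kb on each side the locus had 5559 and 5861 against 6088 and 7676, and these groups did not overlap (ratio 1.21 ± 0.202, exact permutation test, p = 0.333). The difference between the lymphoid-specific and the ubiquitous genes was 5.55 ± 0.709 points in wild-type and 6.32 ± 0.705 in HDAC7-deficient cells, and the groups overlapped. By CpGs the difference, given above, was higher in both HDAC7-deficient libraries, with 10 and 7.56 against 11.8 and 13.3 points. So was the mean coverage of the lymphoid-specific genes, with 15.5% and 15.9% against 16.1% and 18.3%. For both the exact permutation test gave p = 0.333, the smallest possible. Within that mean *Dntt* was lower in both HDAC7-deficient libraries, and the windows of *Rag1* and *Rag2* overlap. The peaks per 10 kb of the class overlapped between genotypes, with 7.94 and 9.40 against 9.25 and 9.06.

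*Hdac7* itself, with 5 kb on each side, was covered over 17.1%, 15.4%, 12.1% and 16.1%, with overlapping genotypes. These positions check nothing about the deletion.

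The wider pathway was described by 18 further genes of break sensing, chromatin signaling, DNA bending and end processing. Their median coverage was 8.80%, 10.5%, 9.48% and 10.8%, and 8, 8, 10 and 10 of them lay above the median of all genes in the same library. The highest values were 20.9%, 19.3%, 17.2% and 28.7%. *H2afx*, the histone variant phosphorylated at breaks, averaged 20% ± 7.10 and *Mdc1* 18.2% ± 0.930 over the 4 libraries, as high as *Rag1* and *Rag2*, so coverage at that level was not particular to lymphoid-specific genes (*H2afx* was named after its values were seen). By peak bases 2 were higher and 3 lower in both HDAC7-deficient libraries, and by number of peaks 3 were higher and 3 lower. Set against the shares of all genes given above (10% and 17.1% by bases, 12% and 10.8% by peaks), these counts of 18 are no result about the pathway, and the values that follow describe single genes. The high mobility group gene *Hmgb2*, whose protein bends DNA and assists the recombinase, had 1131 and 1491 peak bases in wild-type against 1613 and 2198 in HDAC7-deficient cells. *Rnf8*, a ubiquitin ligase of the break response, had 3022 and 4107 against 4197 and 4888. *Atm*, the kinase that signals double-strand breaks, was lower, with 8317 and 8855 against 5970 and 7498, and so was *Mdc1*, a scaffold at broken ends, with 5234 and 5447 against 4837 and 5035. After division by the coverage of its chromosome *Mdc1* overlapped between genotypes, and the other 3 did not. No p below 0.333 was possible for these genes.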

How the data were processed

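Per the labels and the study's methods, the authors trimmed reads (Trim Galore, version 0.4.2, running version 1.6 of Cutadapt). Reads were mapped to mm10, which is GRCm38. The methods name bwa for this and the submitters' processing notes Bowtie2. They then removed duplicates with Picard, made RPKM signal with deepTools and called peaks per library with MACS2. Peaks meeting input peaks were removed, whether before deposit is not stated. The deposited values are peak positions, with no counts or scores, so depth is unknown. The 4 input libraries and the authors' test on reads were not analysed here.

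Peaks and bases were counted with Python 3.11.15 and NumPy 2.4.6 over GENCODE M21 genes with 5 kb on each side (a peak counts with 1 bp of overlap). Sequences and CpGs were read from RefSeq's GRCm38.p6 with pysam 0.24.0. The sequence of a stretch in a ubiquitous gene is not reported here. Figures used matplotlib 3.10.9. Nothing in the sources says that replicates were separate animals, so p-values measure the spread between these libraries. Genotypes were compared by an exact permutation test (two-sided, 6 ways of splitting 4 libraries into 2 and 2), and ratios carry the SD propagated from the replicates. Counting was tested on simulated peaks.

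The members and gene lists were chosen with earlier results of these data known. All 10 members, *Hdac7* and overlapping genes were to be named, with at most 4 pathway genes, those not overlapping between genotypes with the widest gap in coverage. The comparisons by known bases, coding bases, CpG density and repeats were added after seeing the data. Alternatives were other flanks, peaks of 200 bp or more, peaks within 100 bp merged, scaling to the chromosome, counting by CpGs and leaving out each library.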

Additional observations from a re-analysis of the deposited data

How the results depend on the processing

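With 2 libraries per genotype no test could pass 0.05 under any setting. The ratio of peak bases over the 10 genes stayed between 1.04 and 1.09 under other flanks, widths, merging, scaling and the union of windows, and leaving out 1 library gave 0.971 to 1.19, below 1 without HDAC7-deficient replicate 2. Leaving out 1 library gave 1.03 to 1.14 for the number of peaks and 1.03 to 1.31 for the *Rag1*-*Rag2* locus. With a replicate block the 3 ratios were 1.08, 1.09 and 1.16 (exact sign-flip test, p = 0.5, the smallest possible), in the same direction as without it. Nothing in the labels says what replicates of one number share. Libraries of equal number alone shared 4.43% and 3.43% of all regions and those of unequal number 2.59% and 2.73%. Whether replicates of equal number were paired was not tested.

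Genes higher in both HDAC7-deficient libraries numbered 2 with the gene body alone, 4 with 2 kb of flank, 1 with 10 kb, 1 with peaks of 200 bp or more, 4 with peaks within 100 bp merged and 4 with scaling to the chromosome. *Rag2* was in all of these lists, which are drawn from the same peaks. Of all genes, 7.48% to 10.4% were higher under the first 5 settings and 13.2% after scaling. Genes lower in both numbered 2 with 10 kb (*Dntt* and *Dclre1c*) and 0 in the other 5. Of all genes, 15.4% to 17.7% were lower under the first 5 settings and 17% after scaling. Of the 18 pathway genes, 3 were higher and 1 lower after scaling to the chromosome.

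The lymphoid-specific minus ubiquitous difference was 5.20 points with *Rag1* and *Rag2* as 1 locus, 4.59 for gene bodies, 4.65 with 10 kb of flank, 4.04 with peaks of 200 bp or more, 10.7 by CpGs, 16.7 by coding bases and 8.20 by coding bases without *Rag1*. It was 5.64 to 6.23 with 1 library left out. With peaks of 200 bp or more, 3 genes (*Rag1*, *Rag2* and *Prkdc*) lay above the median of genes of like length in every library, and 33 of 492 regions were shared by all 4. Under the other settings 4 to 6 genes lay above that median, with *Rag1* and *Rag2* among them each time. The share of all genes that lie so was not counted under any setting. The comparisons by coding bases, known bases and CpG density were chosen after seeing the data. The lack of heights and read counts limits all of these values.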
